A study of Mus musculus with 6 samples.

Results

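Chemokines of the CXC and CX3C families and the atypical receptor ACKR3 were followed in lung endothelial cells (ECs) of mice with breast cancer metastases. The set held 10 genes of 18194 measured: Cxcl1, Cxcl2, Cxcl9, Cxcl10, Cxcl11, Cxcl12, Cxcl13, Cxcl16, Cx3cl1 and Ackr3. Every probe set that the platform's annotation assigns to 1 of these symbols alone was taken, which gave 21 of 45101 probe sets. ECs came from NSG mice aged 6 to 8 weeks, a strain without mature lymphocytes, which had received MDA-MB-231-LM2 cells, a lung-metastatic derivative of a human breast cancer line, through a vein. In the shTNC group the cancer cells expressed a hairpin RNA against TNC, the gene for the matrix protein tenascin C, and in the shControl group a control hairpin RNA. Lungs were taken on day 20, and CD31-positive cells were sorted from whole lungs after removal of cells with blood, epithelial, fibroblast or cancer cell markers, so that vessels away from metastases were sampled as well. There were 3 biological replicates per group with 1 array each, and this small number limits the precision of all values given here. The comparison asks how these signals of ECs differ when the cancer cells in the lung make less TNC. The authors also report less lung colonization by TNC knockdown cells, so TNC and metastatic load cannot be told apart here. In such bulk samples, fewer cells of a type and less RNA per cell cannot be told apart.

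Chemokines are small secreted proteins that attract cells through G-protein-coupled receptors and are held on the endothelial surface and in the matrix. CXCL1 and CXCL2 act on CXCR2 of neutrophils, CXCL9, CXCL10 and CXCL11 are interferon-induced ligands of CXCR3, CXCL13 acts on CXCR5 of B cells, and CXCL12 acts on CXCR4, a receptor that breast cancer cells also carry. CXCL16 and CX3CL1 differ from the others in being made as transmembrane proteins that are shed by proteases. ACKR3 does not activate G proteins but takes up CXCL12 and CXCL11, and thereby lowers their amount outside the cell.

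The stretches before the start sites of 4 of these genes are shown because their known regulation differs: Cxcl1, Cxcl2 and Cxcl10 are textbook targets of NF-kB, Cxcl10 also of interferon, while Cxcl12 is made constitutively. The sequences are those of RefSeq on build GRCm38.p6, the promoter table of which held 8 of the 10 genes, without Cxcl11 and Cxcl16. Capitals mark 3 patterns on either strand: the NF-kB type (GGG, any 3 bases and TTCC) in Cxcl1, Cxcl2 and Cxcl10, the interferon-response type (GAAA, any 2 bases and GAAA) in Cxcl10, and the GC box GGGCGG in Cxcl12.
Cxcl1 (chr5:90891125-90891204, + strand): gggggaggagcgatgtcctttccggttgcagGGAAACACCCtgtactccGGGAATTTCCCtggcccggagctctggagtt
Cxcl2 (chr5:90903779-90903858, + strand): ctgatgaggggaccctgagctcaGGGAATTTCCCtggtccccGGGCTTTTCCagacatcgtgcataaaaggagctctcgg
Cxcl10 (chr5:92348980-92349109, - strand): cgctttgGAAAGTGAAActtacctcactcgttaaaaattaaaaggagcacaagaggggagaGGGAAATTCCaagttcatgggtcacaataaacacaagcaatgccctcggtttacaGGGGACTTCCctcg
Cxcl12 (chr6:117168435-117168534, + strand): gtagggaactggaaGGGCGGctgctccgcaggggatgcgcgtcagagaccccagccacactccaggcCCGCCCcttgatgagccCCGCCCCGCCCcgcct
In all, 11 patterns were searched, and the 3 given here were chosen, and the NF-kB type among them loosened, after the matches in these genes had been seen. They therefore serve as a description. In the 250 bases before the start site, the NF-kB type stood in 3 of the 8 genes and in 4.65% of all windows of that length. For the interferon-response type these were 1 of 8 genes and 2.98%, and for GGGCGG 4 of 8 and 32.7%. Some matches overlap, since GGGAATTTCCC holds the NF-kB type on both strands and neighbouring GC boxes of Cxcl12 share a base.

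Expression was read as log2 levels per probe set, and a difference of 1 is a 2-fold change. Each gene was represented by its brightest probe set (the lead), and probe sets whose mean stayed below 7.48 are given as near background, a level that 95% of the 44 probe sets of olfactory receptors did not reach. By this measure 9 of the 10 genes were above background in these ECs and Cxcl11 was not. The levels of Cxcl12 and Cxcl1 on all 3 shTNC arrays lay above those on all 3 shControl arrays. Cxcl16 had lower levels on the 3 shTNC arrays than on 2 of the 3 shControl arrays, and the groups overlapped for Ackr3 and the 6 other genes. None of the 10 genes passed an adjusted p of 0.05.

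**Figure D1:**
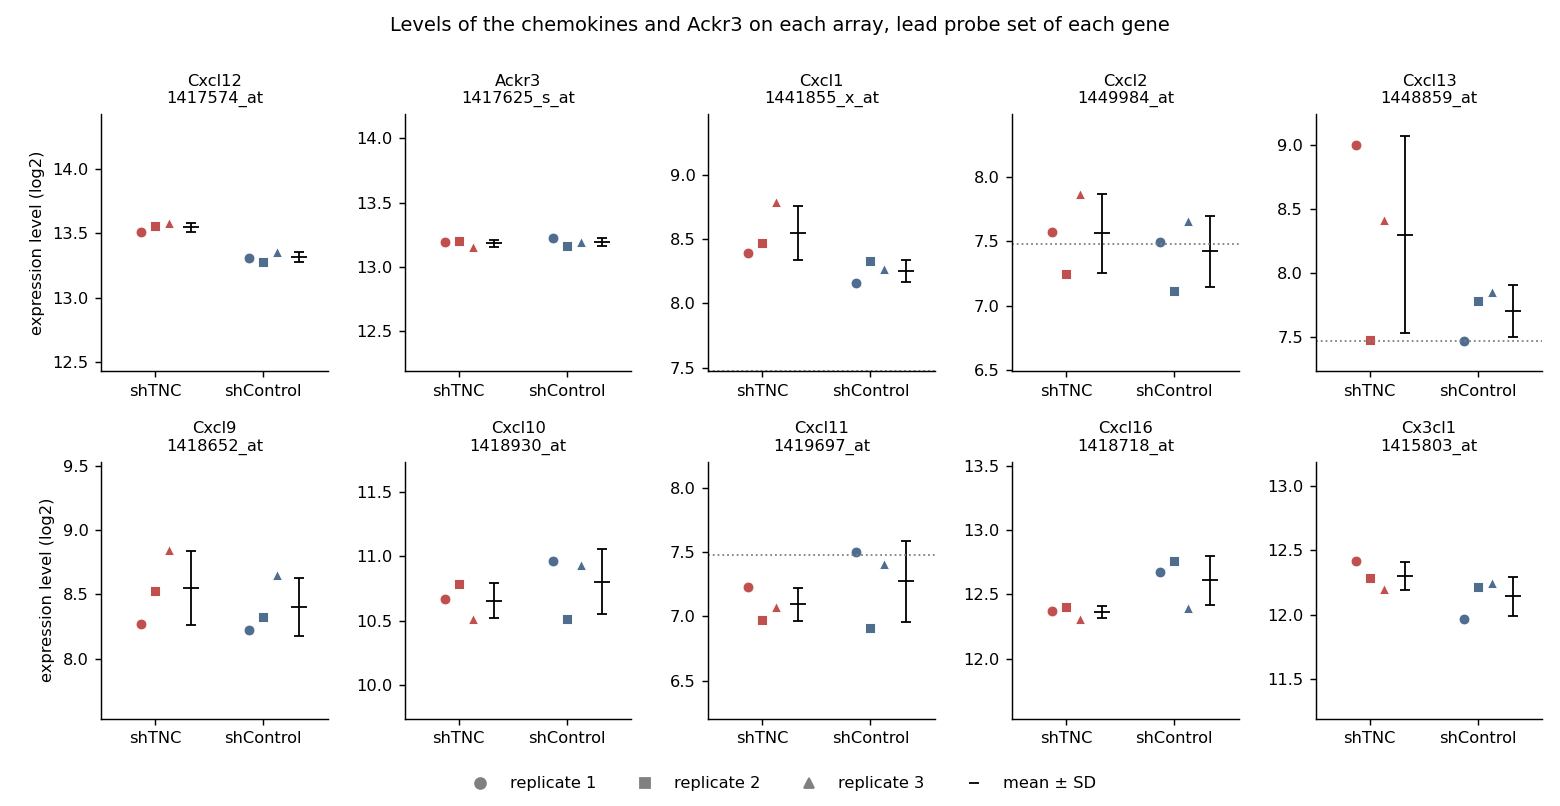
Expression level (log2, y axis, with the same span in every panel) of the lead probe set of each gene on each array, with shTNC on the left and shControl on the right of each panel. Points are arrays, the black bar is the mean ± SD of 3 arrays, and the dotted line is the near-background level of 7.48. The groups are apart for Cxcl12 and Cxcl1 and overlap in the other panels.

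The arrays were alike in the mean level of pan-endothelial markers and varied more in markers of other cells. Some of the latter were bright, such as Sftpc, Col3a1 and Lyz2, at means over the arrays of 13.01, 12.31 and 12.16. All 17 pan-endothelial markers were above background, with a median difference of 0.00084 (shTNC minus shControl), and their mean level lay between 13.38 and 13.40 in shTNC and between 13.36 and 13.42 in shControl. Groups were apart for 1 of the 17 with shTNC lower (Emcn) and for 2 with shTNC higher (Flt1 and Sox17). Over all genes these shares were 12.4% and 7.36%. Pecam1, the gene of the sorted marker CD31, lay between 13.94 and 13.97 in shTNC and between 13.92 and 14.03 in shControl. The array of shControl replicate 2 stood apart on the first principal component, at -37.7 against values between 13.8 and 18.4 for shTNC and -8.62 and -0.075 for the other shControl arrays, so the lead probe sets of the 10 genes are also given without it, as are other genes where leaving it out ended or brought an unadjusted p under 0.05. Macrophage and monocyte markers had a mean level from 8.63 to 8.89 in shTNC and from 8.86 to 9.0 in shControl, and at an unadjusted p under 0.05 the lower genes were 4 of 16 (Mrc1, Chil3, Cd14 and Itgax), with 0 higher. Over all genes the shares at this threshold were 7.12% lower and 4.54% higher, to be read beside every count by list. Fibroblast markers ranged from 10.18 to 10.71 in shTNC and from 9.78 to 10.28 in shControl, with 2 of 11 higher (Mfap4 and Postn). Of their differences 8 of 11 were above 0, with a median of 0.43 against -0.030 over all genes. Pericyte and smooth muscle markers ranged from 8.81 to 9.02 in shTNC and from 8.70 to 8.84 in shControl, with 2 of 11 higher (Myh11 and Des) and a median difference of 0.089. Epithelial markers ranged from 8.89 to 9.85 in shTNC and from 9.22 to 9.62 in shControl, neutrophil markers from 7.51 to 7.99 in shTNC and from 7.61 to 8.00 in shControl, and platelet markers from 8.07 to 8.18 in shTNC and from 8.04 to 8.39 in shControl. At the same threshold 1 pan-endothelial marker (Sox17) was higher. Lower were 1 neutrophil marker (Elane) and 1 epithelial marker (Foxj1), both near background, and 1 lymphocyte marker (Cd4). Lymphocyte markers, 3 of 11 above background, ranged from 7.02 to 7.07 in shTNC and from 7.10 to 7.22 in shControl, with 9 differences below 0. Of 5 dendritic cell markers Zbtb46 was higher and Xcr1 lower at that threshold. Zbtb46 had a mean level of 11.24, against 7.14 to 8.14 for the other dendritic cell markers. Its other probe sets differed by 0.082, 0.21 and 0.13. Second probe sets differed by 0.095 for Sox17 and, near background, by 0.15 for Cd4, -0.063 for Myh11 and 0.098 for Des. When shControl replicate 2 was left out, Sox17, Cd4, Mfap4 and Des had unadjusted p above 0.05, Dcn and Upk3b were higher and the same 4 macrophage markers were lower. The part of these cells in the chemokine values was not tested.

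Cxcl12 is given together with Ackr3, another member, and with the receptor gene Cxcr4, which is not a member. All 3 probe sets of Cxcl12 had higher levels in shTNC ECs, by between 0.22 and 0.51 on the log2 scale, while its scavenger Ackr3 differed by -0.011. Cxcl12 (1417574_at, the lead) had levels of 13.51, 13.56 and 13.58 in shTNC against 13.31, 13.28 and 13.35 in shControl. The lowest shTNC array thus lay above the highest shControl array, and the SD within a group was 0.034 in shTNC and 0.038 in shControl. The difference was 0.23 ± 0.080 (SE; 1.18-fold) with a 95% confidence interval from 0.050 to 0.42, at an unadjusted p of 0.019 and an adjusted p of 0.30 in limma. A dimmer probe set (1448823_at) had levels of 10.22, 10.24 and 10.32 in shTNC against 9.80, 9.56 and 9.90 in shControl, and differed by 0.51 ± 0.11 (1.42-fold, unadjusted p 0.0014, adjusted p 0.20). The second brightest (1439084_at) had levels of 13.33, 13.38 and 13.31 in shTNC against 13.11, 12.96 and 13.28 in shControl, and differed by 0.22 ± 0.10 (unadjusted p 0.059). For all 3 probe sets the groups were apart, with shTNC higher. The larger difference was seen on the dimmest of the 3 probe sets, and the probe sets of a gene are not independent samples.

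The Cxcl12 difference kept its direction with each array left out in turn, between 0.22 and 0.25 for the lead and between 0.41 and 0.58 for the dimmest probe set. Without shControl replicate 2 the lead differed by 0.22 and the dimmest by 0.41, while the second brightest (1439084_at) differed by 0.15 (unadjusted p 0.17). The unadjusted p of the lead was above 0.05 without shTNC replicate 2 (0.058) or shTNC replicate 3 (0.064), and that of the dimmest probe set was under 0.05 in all 6 cases. The smallest adjusted p of the lead over the alternatives tried was 0.068, with an intensity trend and robust eBayes. Fibroblasts and pericytes also make CXCL12 in many organs, and their marker levels are given above. Among all 13444 genes above background, the 3 with the pattern over the 6 arrays most like that of Cxcl12 (smallest root mean square distance between standardized levels) were Cavin2, a caveolar coat gene of ECs, Fzd7, a Wnt receptor gene, and Spin1, a chromatin reader gene, at distances of 0.082, 0.12 and 0.13. They differed by 0.26, 0.53 and 0.22, and no test goes with this description.

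Ackr3 (1417625_s_at) had levels of 13.19, 13.20 and 13.15 in shTNC against 13.23, 13.16 and 13.19 in shControl. The groups overlapped, with all 6 arrays close together. The difference was -0.011 ± 0.079 (adjusted p 0.97), with a 95% confidence interval from -0.19 to 0.17. Changes within this range are not excluded, and Ackr3 had 1 probe set. Without shControl replicate 2 the difference was -0.028. Cxcr4, the signalling receptor of CXCL12, had levels of 12.63, 12.64 and 12.43 in shTNC against 12.21, 12.60 and 12.29 in shControl, and differed by 0.20 ± 0.12 with overlapping groups, or by 0.32 without shControl replicate 2 (unadjusted p 0.018) and 0.12 without shControl replicate 1. Of the other genes of the CXCL12 axis, Dpp4, whose protease product inactivates CXCL12, differed by 0.033 ± 0.082, Hif1a, which drives Cxcl12 in hypoxia, by -0.093 ± 0.10, and the signal transducers Arrb2 and Gnai2 by 0.024 ± 0.086 and 0.015 ± 0.082. In this list of 7 genes, all above background, Cxcl12 was the only one at an unadjusted p under 0.05 with all arrays, and the median difference was 0.024 against -0.030 over all genes. The genes most like Ackr3 over the arrays were Adam17, Kcnip1 and Htr1a, at distances of 0.19 to 0.21.

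Cxcl1, a neutrophil attractant induced in inflamed endothelium, was the second gene with groups apart. On its lead probe set (1441855_x_at, a suffix that marks probes matching other transcripts too) the levels were 8.39, 8.47 and 8.79 in shTNC against 8.16, 8.33 and 8.26 in shControl. The highest value came from shTNC replicate 3, and the nearest arrays of the groups lay within 0.1 of each other. The difference was 0.30 ± 0.12 (1.23-fold), with an unadjusted p of 0.037 and an adjusted p of 0.36. The probe set without such a suffix (1419209_at) had levels of 8.47, 8.54 and 8.97 in shTNC against 7.72, 7.61 and 8.36 in shControl, a difference of 0.76 ± 0.21 (1.70-fold, unadjusted p 0.0065, adjusted p 0.25). Here too the groups were apart. The third probe set (1457644_s_at) had levels of 8.17, 8.09 and 8.62 in shTNC against 8.14, 8.23 and 8.29 in shControl, with overlapping groups and a difference of 0.072 ± 0.14.

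The size of the Cxcl1 difference rested in part on shTNC replicate 3. Without it the lead differed by 0.18 (unadjusted p 0.14), 1419209_at by 0.61 and the third probe set by -0.092. The unadjusted p of the lead was also above 0.05 without shControl replicate 1 (0.11) or shControl replicate 3 (0.066), and in the fit with an intensity trend and robust eBayes (0.061). For 1419209_at it was under 0.05 with any single array left out, at differences between 0.61 and 0.99. Without shControl replicate 2 the lead differed by 0.34 and 1419209_at by 0.62.

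Cxcl2, a second ligand of CXCR2 encoded near Cxcl1, lay at the near-background level. It had levels of 7.58, 7.25 and 7.86 in shTNC against 7.49, 7.11 and 7.66 in shControl, and differed by 0.14 ± 0.19 with overlapping groups. In both groups replicate 2 was lowest and replicate 3 highest. Without shControl replicate 2 or shTNC replicate 3 the sign turned, at -0.012 and -0.0100. Cxcl3 and Cxcl5, which encode further CXCR2 ligands, were near background, as was Cxcr2 itself, which differed by 0.21 ± 0.16, or by 0.37 without shControl replicate 2 (unadjusted p 0.036) and 0.023 without shControl replicate 1, and neutrophil markers are given above.

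**Figure D2:**
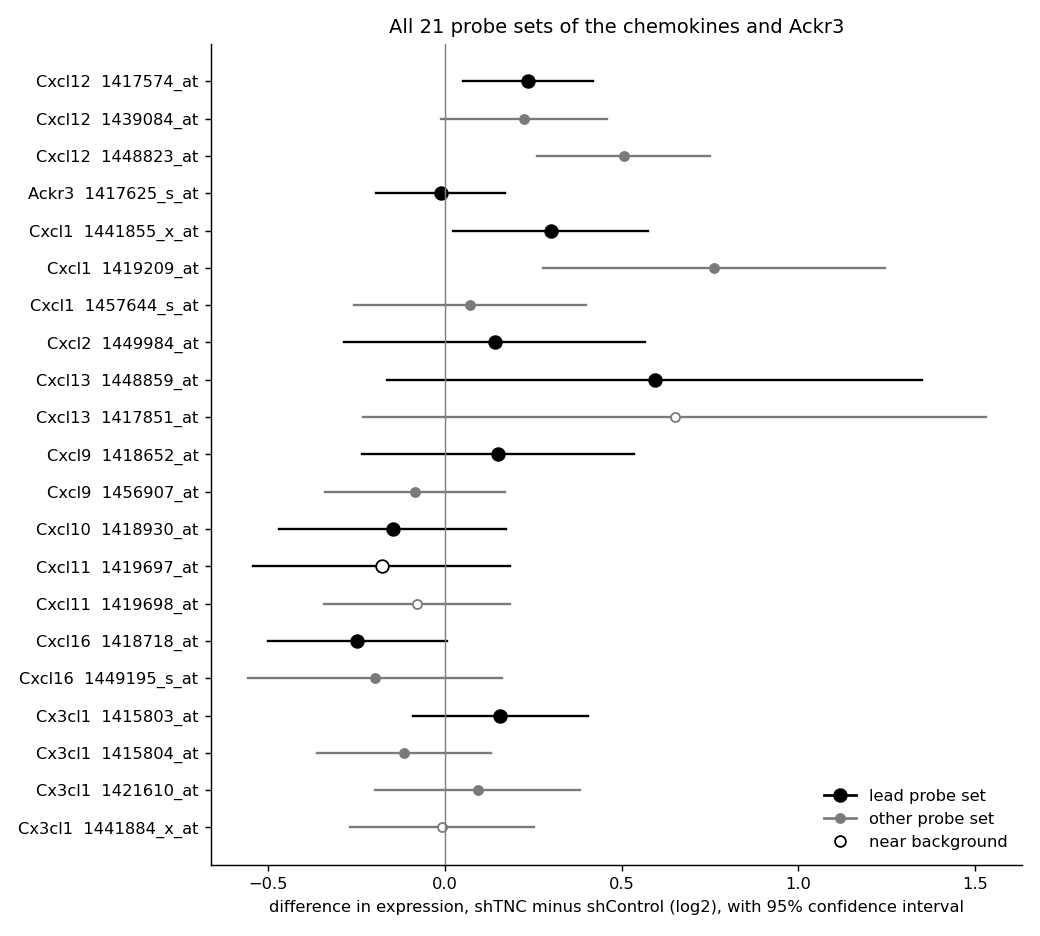
Difference of shTNC minus shControl (log2, x axis) with its 95% confidence interval from limma for all 21 probe sets (rows). Large black points are lead probe sets, grey points other probe sets and open points probe sets near background. The intervals of 4 probe sets lie above 0, 2 of Cxcl12 and 2 of Cxcl1, and none lies below 0.

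The CXCR3 ligands had differences of both signs. Cxcl10 and Cxcl11 had differences below 0, and Cxcl9 a difference above 0 on its lead probe set. Cxcl10 (1418930_at), the ligand induced by both interferon and NF-kB, had levels of 10.67, 10.78 and 10.51 in shTNC against 10.96, 10.51 and 10.93 in shControl. Cxcl11 (1419697_at, near background) had levels of 7.23, 6.97 and 7.08 in shTNC against 7.50, 6.91 and 7.41 in shControl. For Cxcl10 shControl replicate 2 lay at the level of the lowest shTNC array and for Cxcl11 below it, while the other shControl arrays lay above every shTNC array for both genes. With all arrays Cxcl10 differed by -0.15 ± 0.14 and Cxcl11 by -0.18 ± 0.16 (adjusted p 0.69 and 0.66). Without shControl replicate 2 the differences were -0.29 and -0.36, at unadjusted p of 0.029 and 0.012 and adjusted p of 0.41 and 0.36. Without shControl replicate 1 they were -0.065 and -0.066, at unadjusted p of 0.68 and 0.70, and without shControl replicate 3 -0.084 and -0.11. Cxcl10 differed by -0.075 without shTNC replicate 3 and Cxcl11 by -0.12 without shTNC replicate 2, and p was above 0.05 for both genes with any array but shControl replicate 2 left out. The second probe set of Cxcl11 (1419698_at), also near background, differed by -0.079 ± 0.11, and by 0.032 without shTNC replicate 1.

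Cxcl9 (1418652_at), which is induced by interferon-gamma, had levels of 8.27, 8.53 and 8.85 in shTNC against 8.22, 8.32 and 8.65 in shControl. The groups overlapped, and replicate 3 was highest in both. The difference was 0.15 ± 0.17, or 0.11 without shControl replicate 2. It was 0.00057 without shTNC replicate 3 (unadjusted p 0.997) and 0.061 without shControl replicate 1, against 0.29 without shTNC replicate 1 and 0.28 without shControl replicate 3. The second probe set (1456907_at) differed by -0.084 ± 0.11. Ifng, the interferon-gamma gene, was near background, and Cxcr3 differed by -0.048 ± 0.12.

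Cxcl13, which guides B cells into follicles and is made by stromal cells and body-cavity linings, had the widest spread. Its lead probe set (1448859_at) had levels of 9.0, 7.48 and 8.41 in shTNC against 7.47, 7.78 and 7.86 in shControl. Replicates 1 and 3 of shTNC lay above all shControl arrays, whereas replicate 2 was at the near-background level. The difference was 0.59 ± 0.33 (adjusted p 0.48). The second probe set (1417851_at, near background) had levels of 8.53, 6.72 and 7.44 in shTNC against 6.99, 6.72 and 7.02 in shControl, and differed by 0.65 ± 0.38. Without shTNC replicate 1 the lead differed by 0.24, without shTNC replicate 2 by 1.0 (unadjusted p 0.0011, adjusted p 0.41) and without shControl replicate 2 by 0.63. Mesothelial markers had the same order over the shTNC arrays, with mean levels of 9.03, 7.79 and 8.52 in shTNC against 7.84, 7.68 and 7.79 in shControl. Msln, the gene for mesothelin, had levels of 9.07, 7.29 and 8.53 in shTNC against 7.28, 7.47 and 7.66 in shControl, and Upk3b, a uroplakin gene of mesothelium, 9.89, 8.49 and 8.82 in shTNC against 8.21, 8.70 and 8.10 in shControl. All 5 mesothelial markers had differences above 0, and Gpm6a, at 0.76 ± 0.24, was the 1 with an unadjusted p under 0.05. Of the defining markers Wt1 and Lrrn4 were near background by their means over the 6 arrays. Lrrn4 had levels of 8.54, 6.45 and 7.73 in shTNC against 6.71, 6.78 and 6.76 in shControl. It differed by 0.83 ± 0.43, and Wt1 by 0.24 ± 0.17. The part of such cells in the Cxcl13 value was not tested.

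**Figure D3:**
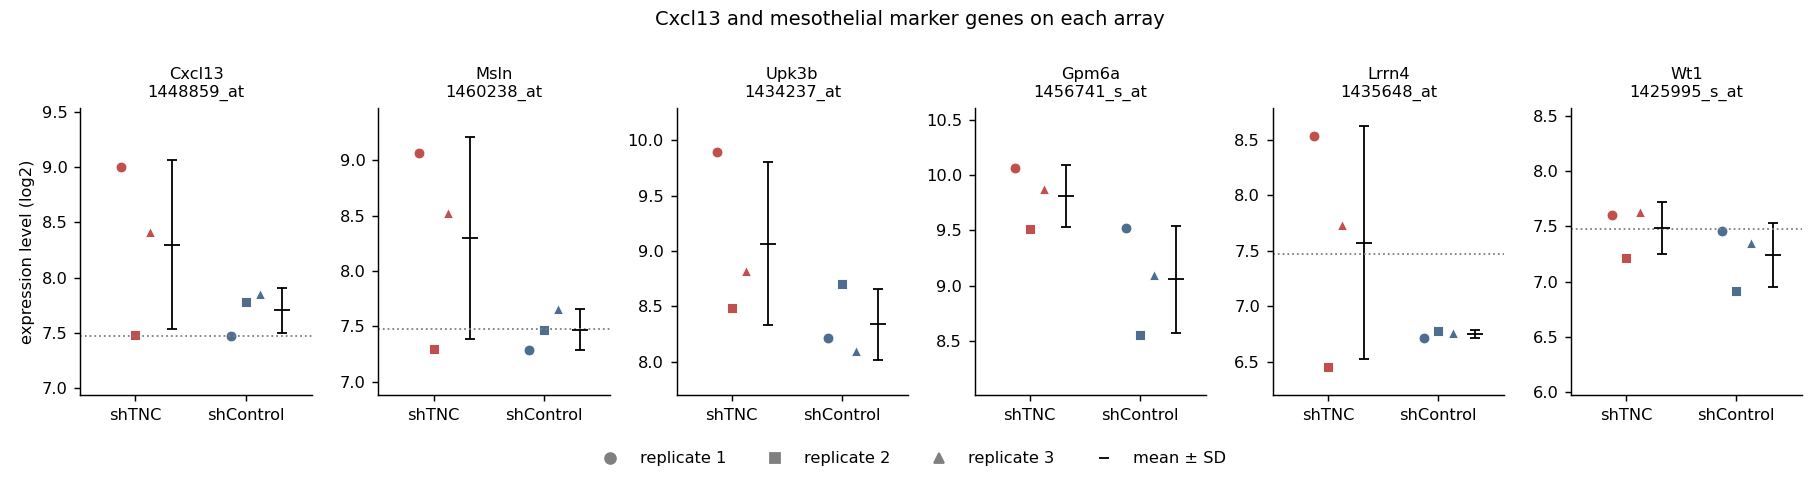
Expression level (log2, y axis, with the same span in every panel) of Cxcl13 and all 5 mesothelial marker genes on each array, with shTNC on the left and shControl on the right. Points are arrays, the black bar is the mean ± SD of 3 arrays, and the dotted line is the near-background level of 7.48. In every panel shTNC replicate 2 is the lowest of its group, and shTNC replicate 1 is the highest array in all panels except Wt1, where replicate 3 is.

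The transmembrane chemokines, which hold leukocytes on the vessel wall, were both above background. Cxcl16 (1418718_at) had levels of 12.37, 12.40 and 12.31 in shTNC against 12.67, 12.76 and 12.40 in shControl. The groups overlapped only through shControl replicate 3, which lay at the level of shTNC replicate 2. The difference was -0.25 ± 0.11 (0.84-fold, unadjusted p 0.054, adjusted p 0.39). It was -0.35 without shControl replicate 3 (unadjusted p 0.0064, adjusted p 0.19) and -0.17 without shControl replicate 2. The unadjusted p was under 0.05 as well with an intensity trend, with array weights and with the replicate number as a block (0.013, 0.042 and 0.048). The second probe set (1449195_s_at) had levels of 11.33, 11.27 and 10.86 in shTNC against 11.34, 11.58 and 11.13 in shControl, and differed by -0.20 ± 0.16. This was -0.053 without shTNC replicate 3, -0.084 without shControl replicate 2 and -0.31 without shControl replicate 3.

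Cx3cl1, which encodes fractalkine, had 4 probe sets that disagreed in sign. The lead (1415803_at) had levels of 12.41, 12.28 and 12.20 in shTNC against 11.97, 12.21 and 12.24 in shControl, and differed by 0.16 ± 0.11 with overlapping groups. The next brightest (1415804_at) differed by -0.11 ± 0.11, and the dimmer ones by 0.092 ± 0.13 and, near background, -0.0078 ± 0.11. The lead differed by 0.19 without shControl replicate 2, without shControl replicate 1 by 0.070 (unadjusted p 0.52) and without shTNC replicate 1 by 0.099. The third (1421610_at) differed by -0.015 without shControl replicate 1. Among 6 genes that process chemokines, all above background, the shedding proteases Adam10 and Adam17 differed by 0.072 ± 0.10 and -0.020 ± 0.093. Rhbdf2, which encodes a partner of ADAM17 needed for its maturation, had levels of 10.66, 10.58 and 10.64 in shTNC against 10.94, 10.83 and 10.78 in shControl. These groups were apart, with a difference of -0.22 ± 0.085 (unadjusted p 0.029, adjusted p 0.33), and the other 5 genes, Dpp4, Mmp2 and Mmp9 among them, had unadjusted p above 0.05. That of Rhbdf2 was between 0.052 and 0.097 with any shTNC array or shControl replicate 1 left out.

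Counted together, 6 of the 10 lead probe sets had differences above 0 and 4 below 0, with a median of 0.15 against -0.030 over all genes. At an unadjusted p under 0.05, 2 of the 10 genes were higher in shTNC (Cxcl1 and Cxcl12), where the background over all 18194 genes was 4.54% higher, and 0 were lower, where it was 7.12%. Groups were apart with shTNC higher for 2 of 10 genes against 7.36% of all genes, and with shTNC lower for 0 of 10 against 12.4%. An adjusted p of 0.05 was passed by 0 of the 10 genes and by 0 of all genes in limma. With all 21 probe sets, 17 of them above background, 4 were higher at an unadjusted p under 0.05 (6.66% of all probe sets) and 5 were apart with shTNC higher (8.92%), all of them of Cxcl12 or Cxcl1. With counts of 2 in 10 genes chosen with results known, no more can be read from these shares. The median was 0.0025 without shTNC replicate 3, and 0.032 with the mean of a gene's probe sets in place of the lead.

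Receptors of these ligands were mostly dim in sorted ECs. Of 6 matched CXC and CX3C receptor genes 3 were above background, Cxcr3, Cxcr4 and Cx3cr1, and 1 of the 6 was higher and 1 lower at an unadjusted p under 0.05 (4.54% and 7.12% of all genes). Cx3cr1, the fractalkine receptor of monocytes, had levels of 7.81, 7.65 and 7.60 in shTNC against 8.15, 8.54 and 7.70 in shControl, with a difference of -0.45 ± 0.19 (adjusted p 0.38). The difference was -0.24 without shControl replicate 2 (unadjusted p 0.14), and p was under 0.05 only without shControl replicate 3. The groups overlapped, the second probe set of Cx3cr1 differed by -0.13 ± 0.15, and 4 macrophage markers were lower as stated above. Cxcr6, the receptor of CXCL16, was near background and differed by 0.47 ± 0.18 (adjusted p 0.35), and its second probe set by 0.11 ± 0.094. The lead of Cxcr6 differed by 0.38 without shControl replicate 2 (unadjusted p 0.11) and by 0.27 without shTNC replicate 1 (unadjusted p 0.099), and its unadjusted p was above 0.05 without shControl replicate 3 as well. Cxcr2 and Cxcr5 were near background as well.

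The other atypical receptors, which take up chemokines without signalling through G proteins, were all above background. Gpr182, an endothelial scavenger of several CXC chemokines including CXCL12, had levels of 12.34, 12.39 and 12.31 in shTNC against 12.05, 12.24 and 11.96 in shControl, and differed by 0.27 ± 0.099 (unadjusted p 0.027, adjusted p 0.33). It was 0.34 without shControl replicate 2, and p was between 0.058 and 0.083 without shTNC replicate 1 or 2 or shControl replicate 1 or 3. Ackr4, which takes up CCL19, CCL21 and CCL25, had levels of 12.80, 12.90 and 12.85 in shTNC against 12.77, 12.23 and 12.74 in shControl, and differed by 0.26 ± 0.15. Its 2 other probe sets differed by 0.28 and 0.42, and without shControl replicate 2 the lead differed by 0.090 (unadjusted p 0.33). The groups of both genes were apart, with shTNC higher, although the nearest arrays of the groups lay close together for Ackr4. Ackr1, the carrier of inflammatory chemokines on venules, had levels of 10.28, 10.44 and 10.54 in shTNC against 10.86, 11.01 and 10.52 in shControl, and differed by -0.38 ± 0.14 (unadjusted p 0.026, adjusted p 0.33) with groups that overlapped through shControl replicate 3. Ackr1 differed by -0.27 without shControl replicate 2 (unadjusted p 0.087), and p was also above 0.05 without shTNC replicate 1 or 2 or shControl replicate 1. Ackr2, the scavenger of inflammatory CC chemokines, differed by 0.016 ± 0.099.

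**Figure D4:**
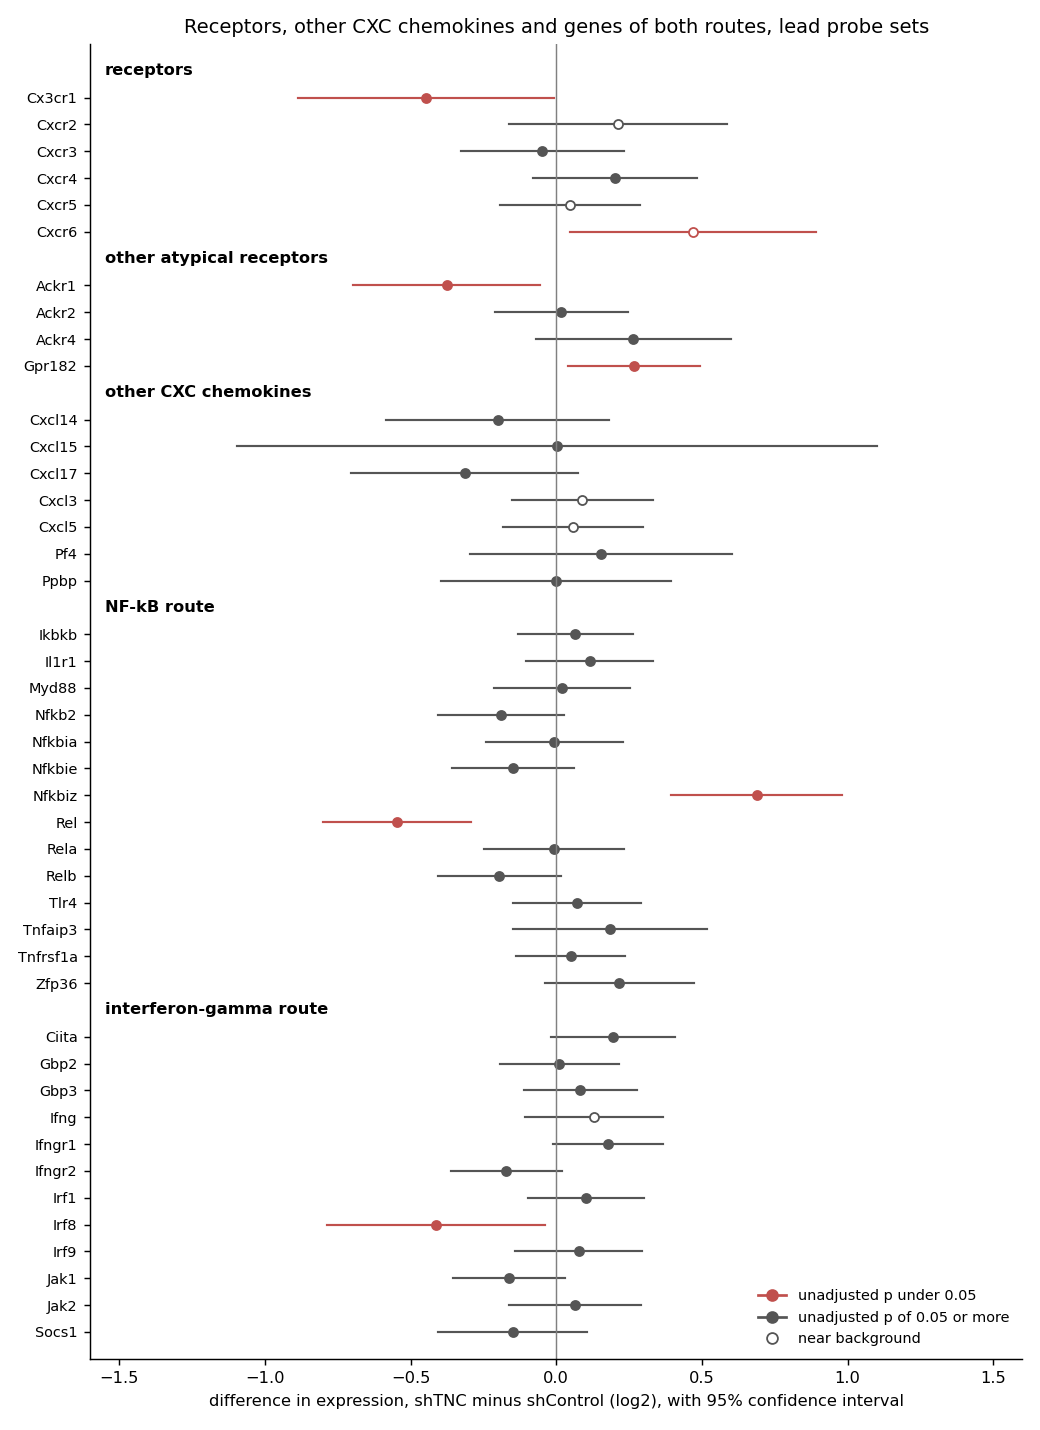
Difference of shTNC minus shControl (log2, x axis) with its 95% confidence interval for the lead probe sets of receptors, other CXC chemokines and genes of the NF-kB and interferon-gamma routes (rows). Red marks an unadjusted p under 0.05 and open points are near background. The red intervals lie on both sides of 0, with Nfkbiz at 0.69 and Rel at -0.55.

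The NF-kB route, which drives Cxcl1, Cxcl2 and Cxcl10, had members on both sides. Of 14 matched genes, all above background, 1 was higher and 1 lower at an unadjusted p under 0.05 (4.54% and 7.12% of all genes), and the median difference was 0.035. Nfkbiz, which encodes the nuclear inhibitor-like protein IkB-zeta, had levels of 11.63, 11.85 and 11.73 in shTNC against 10.79, 11.17 and 11.18 in shControl, a difference of 0.69 ± 0.13 (adjusted p 0.18). Rel, a gene of an NF-kB subunit, had levels of 8.99, 9.11 and 8.87 in shTNC against 9.52, 9.40 and 9.70 in shControl, a difference of -0.55 ± 0.11 (adjusted p 0.20). The groups of both genes were apart, and p was under 0.05 with any single array left out. Other probe sets of Nfkbiz differed by 0.34 ± 0.13 and 0.049 ± 0.21, and Rel had 1 probe set. Nfkbia, the inhibitor gene that NF-kB itself induces, differed by -0.0066 ± 0.10, and Rela by -0.0093 ± 0.10. Groups were apart with shTNC lower for 3 of the 14 genes (Rel, Relb and Nfkb2) and higher for 2 (Nfkbiz and Zfp36). Over all genes these shares were 12.4% and 7.36%. The subunit genes Relb and Nfkb2 differed by -0.20 ± 0.092 and -0.19 ± 0.094, with unadjusted p of 0.064 and 0.079 in limma. In the interferon-gamma route, which drives Cxcl9, Cxcl10 and Cxcl11, 1 of 12 matched genes was lower and 0 higher, with a median of 0.071. That gene was Irf8, a transcription factor gene mainly of myeloid cells, at -0.41 ± 0.16 (adjusted p 0.35) with a second probe set at -0.078 ± 0.12. It had levels of 8.72, 8.41 and 8.62 in shTNC against 9.22, 8.63 and 9.14 in shControl, where replicate 2 was the lowest, as for Cxcl10 and Cxcl11. Without that array Irf8 differed by -0.59 (unadjusted p 0.0014), and p was between 0.059 and 0.12 without shTNC replicate 2 or 3 or shControl replicate 1 or 3. Irf1 and Gbp2, interferon targets, differed by 0.10 ± 0.086 and 0.0098 ± 0.089.

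Of the other 7 CXC chemokine genes 5 were above background, and 0 of 7 had an unadjusted p under 0.05. Cxcl17, a mucosal chemokine gene, had levels of 7.98, 7.82 and 7.96 in shTNC against 7.98, 8.65 and 8.07 in shControl, with groups apart by less than 0.01 and a difference of -0.31 ± 0.17, or -0.11 without shControl replicate 2 and -0.44 without shControl replicate 1 (unadjusted p 0.039). Cxcl14 differed by -0.20 ± 0.17, and by -0.40 without shControl replicate 3 (unadjusted p 0.0054). The platelet chemokine genes Pf4 and Ppbp differed by 0.15 ± 0.20 and -0.00081 ± 0.17, and Pf4 by 0.38 without shControl replicate 2 (unadjusted p 0.028). Cxcl15, a chemokine gene of mouse lung epithelium, had levels of 9.88, 8.73 and 10.84 in shTNC against 9.64, 9.43 and 10.37 in shControl, a difference of 0.0012 ± 0.48, which lay between -0.51 and 0.55 with single arrays left out. The epithelial markers had the same order over the shTNC arrays, with mean levels of 9.49, 8.89 and 9.85 in shTNC against 9.22, 9.43 and 9.62 in shControl, and their part in the Cxcl15 value was not tested. Second probe sets, also above background, differed by -0.38 ± 0.31 for Cxcl15 and by -0.13 ± 0.18 for Cxcl14.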

How the data were processed

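RNA of sorted mouse lung ECs was hybridized to Affymetrix mouse GeneChips, labelled from 2 ng of total RNA per the labels. The authors state that raw files were normalized by robust multiarray averaging (RMA) with the Chipster software. What they deposited is 1 log2 level per probe set and array, and whether these levels come from RMA or another summary was not settled here. Sorted values of the arrays differed by at most 0.070. Such normalization makes values relative within an array, and no detection calls were used.

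All 45101 probe sets entered a two-sided moderated test of shTNC minus shControl (limma 3.58.1, R 4.3.3, functions lmFit and eBayes, 8.15 degrees of freedom), with Benjamini-Hochberg adjustment over all of them and a threshold of 0.05. Symbols came from the platform's annotation, where 34958 probe sets carried 1 symbol, 932 several and 9211 none. The lead probe set of a gene had the highest mean over the 6 arrays. Groups were called apart when no array of one lay within the range of the other. The SE is that of limma, and SDs and means are over 3 arrays. The single-gene exact permutation test has 10 splits and a smallest p of 0.1.

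Of 240 entries in the gene lists 228 were matched, 1 through a synonym. Members and lists were chosen with earlier results of these data known. Named were all members, all receptors and CXC chemokines above background, and members of other pathway lists at an unadjusted p under 0.05. Other genes named for their role or for groups apart, such as Irf1, Nfkbia, Relb, Adam17, Hif1a and Msln, were chosen after their values were seen. The fit was tested on simulated data. Alternatives were quantile normalization, median centring, leaving out dim probe sets, robust eBayes with an intensity trend, weighting of arrays, other rules for genes with several probe sets, a replicate block and leaving out each array.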

Additional observations from a re-analysis of the deposited data

How the results depend on the processing

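Under quantile normalization, median centring, the filter on probe sets near background, the intensity trend with robust eBayes, array weights, both other rules for several probe sets and the replicate block, between 2 and 3 members had an unadjusted p under 0.05, 2 had groups apart, 0 passed an adjusted p of 0.05, and the median difference over members lay between 0.032 and 0.15. With the intensity trend the 2 were Cxcl12 and Cxcl16 (unadjusted p 0.013 in limma), while that of Cxcl1 was 0.061. With a single array left out, the count at an unadjusted p under 0.05 ranged from 0 (without shTNC replicate 3) to 4 (without shControl replicate 2), with 1 without shControl replicate 1. The count with groups apart ranged from 2 to 4, with 4 without shTNC replicate 2 or shControl replicate 2. The median difference ranged from 0.0025 without shTNC replicate 3 to 0.23 without shControl replicate 3, with 0.050 when shControl replicate 2 was left out and 0.065 when replicate 1 of that group was. The cause of these shifts was not tested. With the replicate number as a block 3 members had an unadjusted p under 0.05, Cxcl16 beside Cxcl1 and Cxcl12. Deviations from the group means correlated at -0.11, 0.038 and 0.14 between same-numbered arrays, and at between -0.14 and 0.11 in the other pairs. So few arrays cannot decide whether same-numbered samples shared more than a number. In the exact permutation test Cxcl1 and Cxcl12 had p = 0.1, the smallest it can give. Signs turned for Cxcl2 and Ackr3 in 2 alternatives each, at values between -0.012 and 0.0051. Signal near background limits Cxcl11 and Cxcl2. Leaving out arrays for genes other than the members was chosen after seeing the data.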

Other observations

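CC and XC chemokine genes were compared from a list of 21, of which 19 were matched and 11 were above background. At an unadjusted p under 0.05, 1 of the 19 was lower in shTNC (7.12% of all genes) and 0 were higher (4.54%), and the median difference was -0.081 against -0.030 over all genes. The lower one was Ccl24, an eosinophil attractant made by macrophages, with levels of 7.45, 7.58 and 7.50 in shTNC against 7.73, 7.93 and 7.70 in shControl. Its groups were apart, with a difference of -0.28 ± 0.096 (SE) and an adjusted p of 0.31 in limma. Its unadjusted p was between 0.055 and 0.066 without shControl replicate 2 or shTNC replicate 1 or 3, and without shControl replicate 2 the lower gene was Ccl9. Ccl2, the monocyte attractant, differed by -0.081 ± 0.090 with overlapping groups.

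Genes of vessel types that differ in chemokine display also had members on both sides of 0. Over all genes, 4.54% were higher and 7.12% lower at an unadjusted p under 0.05. Among 7 venous markers, 2 were higher at an unadjusted p under 0.05, the adhesion receptor gene Vcam1 at 0.31 ± 0.096 and Amigo2 at 0.53 ± 0.13, and 2 were lower, Ackr1 and the P-selectin gene Selp at -0.28 ± 0.090. All 3 probe sets of Vcam1 had differences between 0.27 and 0.39, with groups apart. The second probe set of Amigo2, near background, differed by -0.17 ± 0.12. Other probe sets of Selp differed by -0.32 ± 0.11 with groups apart and by -0.16 ± 0.12 with overlapping groups. Among 8 arterial markers 2 were higher (Gja4 and Sox17) and 1 lower (Fbln5), and among 8 general capillary markers 1 was higher (Hilpda). Aerocyte and lymphatic markers had 0 of 7 and 0 of 6 in either direction. The mean level of the general capillary markers lay between 13.23 and 13.25 in shTNC and between 13.12 and 13.19 in shControl. Without shControl replicate 2 Ackr1 and Sox17 had unadjusted p above 0.05 and the aerocyte marker Ednrb was higher. On the lead probe sets of Vcam1, Amigo2, Selp and Fbln5 the unadjusted p was under 0.05 with any single array left out. The second probe set of Fbln5 differed by -0.28 ± 0.16 with overlapping groups. Gja4 had p above 0.05 without shTNC replicate 1 or 2 or shControl replicate 1, Sox17 also without shTNC replicate 2 or 3 or shControl replicate 1, and Hilpda with any array but shControl replicate 2 left out.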
